A study of Mus musculus with 2 samples.

Results

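The miRNAs miR-10a, miR-10b, miR-196a and miR-196b, which are encoded inside the Hox gene clusters, were followed in sorted ureteric bud cells of the embryonic mouse kidney. The members were the array probes named mmu-miR-10a, mmu-miR-10b, mmu-miR-196a and mmu-miR-196b, without an asterisk, which gave 4 of the 1040 miRNA probes on each array. The study comprised 1 group of 2 samples, both from E15.5 kidneys of embryos of the genotype Rosa26YFP; Hoxb7Cre. Cells were released with trypsin and sorted on the yellow fluorescent reporter, which marks cells in which Cre recombinase has acted. The dye was Cy3 for replicate 1 and Cy5 for replicate 2, which leaves dye and sample confounded. No other cell type, stage or genotype was analysed here, and the labels do not say whether the samples came from separate litters.

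miRNAs are short RNAs that guide Argonaute proteins to messenger RNAs, chiefly through the seed at bases 2 to 8, and lower the output of those messages. The Hox genes encode transcription factors that give cells positional identity along the body axis, and the order of genes within each cluster follows the order of their expression domains. The miR-10 and miR-196 hairpins lie within or between these genes, and their miRNAs are themselves regulators of Hox messages. In the mouse miR-196 directs cleavage of the Hoxb8 message, and in zebrafish miR-10 represses hoxb1a and hoxb3a. Hoxb7, the gene whose promoter drives the Cre line used for sorting, is active in the nephric duct and its outgrowth, the ureteric bud.

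The targets of the 4 probes, as given in the scanner tables, are shown first because the members fall into 2 pairs by their seeds, which are in capitals (5′ to 3′).
miR-10a: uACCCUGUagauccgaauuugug
miR-10b: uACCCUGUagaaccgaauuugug
miR-196a: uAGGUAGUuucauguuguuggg
miR-196b: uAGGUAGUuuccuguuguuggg

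The seed ACCCUGU occurred at bases 2 to 8 of 2 probe targets on the array, those of miR-10a and miR-10b. The seed AGGUAGU was likewise found at these bases in miR-196a and miR-196b alone. Each pair differed by 1 base, and in both pairs it was the base at position 12 counted from the 5′ end. This change was U12A between miR-10a and miR-10b, and A12C between miR-196a and miR-196b. The targets held 43.5% G and C for both miR-10 members, 40.9% for miR-196a and 45.5% for miR-196b, against a median of 47.8% over all 1040 targets.

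Each target matched a mature RefSeq miRNA exactly (build GRCm38.p6), and all 4 were the 5′ arm of their hairpin. miR-10a lies at chr11:96317186-96317208 on the plus strand, within the annotated span of Hoxb3 and with Hoxb4 and Hoxb5 as the next genes on either side. miR-10b lies at chr2:74726074-74726096 on the plus strand, within the annotated spans of both Hoxd3 and Hoxd4. miR-196a has 2 hairpins with the same mature 5′ arm, so its probe cannot tell them apart. The first is at chr11:96265187-96265208 between Hoxb9 and Hoxb13, and the second at chr15:102973365-102973386 between Hoxc9 and Hoxc10, both on the plus strand. miR-196b is at chr6:52230129-52230150 on the minus strand, between Hoxa9 and Hoxa10. On chromosome 11, Hoxb7 lies between the hairpins of miR-196a and miR-10a. The gene table gives spans only, so exon and intron were not assigned.

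Both miR-10 members gave signal well above the blank spots in both samples, and neither miR-196 member did. Each miRNA had 3 repeat spots, and each array carried 560 blank spots with a mean raw intensity of 203.9 ± 33.1 in replicate 1 and 58.9 ± 7.42 in replicate 2 (SD over spots). A spot counted as above background when it exceeded the blank mean plus 3 SD, a limit of 303.2 units in replicate 1 and 81.1 units in replicate 2. Detection in a sample required that at least 50% of a miRNA's spots passed. By this rule 2 of the 4 members were detected in both samples, beside 5.96% of all 1040 probes. The same 2 members were called with limits of 6 SD (beside 4.33% of probes) and of 10 SD (beside 3.17%). In bulk samples such as these, fewer cells with a miRNA and less of it per cell cannot be told apart.

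miR-10a, whose hairpin sits beside Hoxb4, gave raw intensities of 1005.9, 1053.0 and 963.4 units in its 3 spots of replicate 1. In replicate 2 its spots gave 204.2, 317.6 and 392.1 units. All 6 spots lay above the limit of their array, and the weakest, the first spot of replicate 2, was at 2.52 times that limit.

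miR-10b, from the Hoxd cluster, gave 1292.4, 1328.3 and 1171.9 units in replicate 1 and 360.0, 502.1 and 524.5 units in replicate 2. Its lowest spot was at 3.86 times the limit in replicate 1 and at 4.44 times in replicate 2. No blank spot on either array was as bright as the median spot of miR-10a or miR-10b. The brightest blank spot of replicate 1, at 916.8 units, came close to miR-10a there, while the next brightest blank reached 243.3 units.

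miR-196a, which is encoded in the Hoxb and Hoxc clusters, gave 217.7, 225.6 and 222.1 units in replicate 1 and 47.8, 49.6 and 47.7 units in replicate 2. miR-196b, from the Hoxa cluster, gave 214.8, 229.9 and 221.3 units in replicate 1 and 47.6, 48.7 and 49.6 units in replicate 2. None of these 12 spots reached a limit. The medians stood at 0.73 times the limit for both in replicate 1, and at 0.59 times for miR-196a and 0.60 times for miR-196b in replicate 2. In replicate 1 they were 19.0 and 18.1 units above the median blank, and in replicate 2 they were below it, as 537 blank spots were brighter than miR-196a and 524 brighter than miR-196b.

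The miR-196 values resembled those of the undetected part of the array. Over the 956 probes detected in neither sample, miR-196 included, the median was 222.1 units in replicate 1 and 52.8 units in replicate 2. The miR-196a probe stood at the 46.2 percentile of all probes in replicate 1 and at the 6.97 percentile in replicate 2. For miR-196b these were the 41.7 and the 11.8 percentile. miR-196a and miR-196b were therefore not detectable against this background, and their absence from the cells is not shown.

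**Figure D1:**
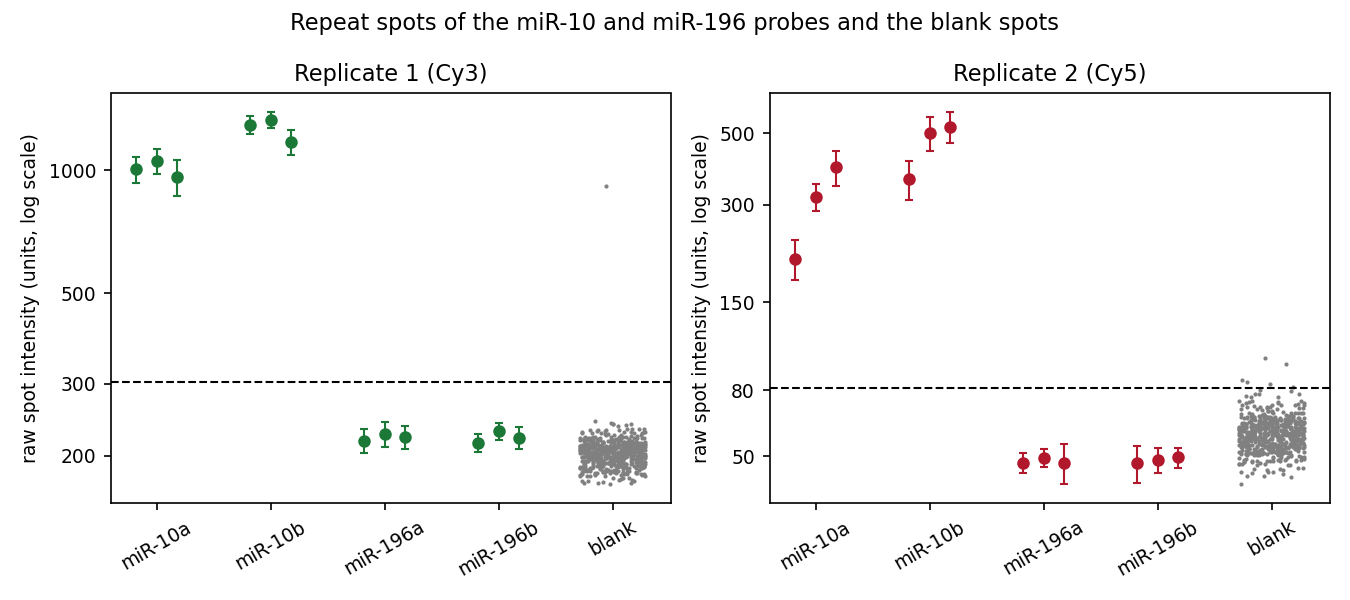
Raw intensity of each repeat spot (points, bars are the SD within the spot) for the 4 miRNAs and of the 560 blank spots (grey), on a log axis, with the detection limit dashed. All 6 spots of miR-10a and all 6 of miR-10b lie above the limits of 303.2 and 81.1 units, and all 12 spots of miR-196a and miR-196b lie below them.

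Signal over blank was then tested across the whole array. After normexp background correction, log2 transformation and quantile normalization, limma's treat function asked which miRNAs exceeded the blank level by more than 2-fold. On this scale miR-10a stood 2.96 log2 units above blank in replicate 1 and 2.68 in replicate 2. Its mean was 2.82 ± 0.20 (SD, n = 2), and it passed with a Benjamini-Hochberg adjusted p of 1.20e-07 over 1040 miRNAs. miR-10b stood 3.38 units above blank in replicate 1 and 3.31 in replicate 2, with a mean of 3.35 ± 0.05 (SD, n = 2; treat, adjusted p = 3.06e-12). After quantile normalization the 2 samples thus gave nearly the same height over blank for miR-10b, and a somewhat wider gap for miR-10a. That step gives both arrays the same distribution of values, so closeness between the samples is partly imposed by it.

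For miR-196a the mean over blank was -0.06 ± 0.40 log2 units (SD, n = 2), and for miR-196b it was -0.04 ± 0.37, and neither passed (treat, adjusted p = 1 for both). Of the 4 members 2 passed, beside 3.46% of all probes. The median over blank was 1.39 log2 units for the 4 members and 0.03 for all probes. No member lay near 1.39, which falls between the miR-10 pair, at 2.82 and 3.35, and the miR-196 pair. A stricter bound of 4-fold was passed by miR-10b (treat, adjusted p = 6.65e-04) and not by miR-10a (treat, adjusted p = 0.246), beside 1.25% of all probes. Without normalization, or with median scaling, neither passed (treat, adjusted p = 1 for both), although their means over blank, 2.87 and 3.39 log2 units, were little changed. In each of these settings 2 of all 1040 probes passed.

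The precursors of the detected pair are shown next, because both arms of each hairpin had a probe on the array. The hairpins are as in RefSeq (GRCm38.p6), with the 5′ arm and then the 3′ arm in capitals.
Mir10a: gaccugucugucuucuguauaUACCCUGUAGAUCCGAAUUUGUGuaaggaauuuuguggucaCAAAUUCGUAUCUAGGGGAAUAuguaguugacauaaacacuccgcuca
Mir10b: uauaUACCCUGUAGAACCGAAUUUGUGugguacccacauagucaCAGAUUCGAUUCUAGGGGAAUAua

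After a hairpin is cut, 1 arm is usually loaded onto Argonaute and the opposite, passenger arm is usually degraded. The array named passenger arms with an asterisk. Of 5 such probes for the miR-10 and miR-196 hairpins, 0 were detected in both samples, beside 5.96% of all 1040 probes. With so low a share over the array, 0 of 5 does not set these arms apart. The probe for miR-10a* gave 208.4, 234.8 and 217.0 units in replicate 1 and 59.9, 57.7 and 61.8 units in replicate 2. The probe for miR-10b* gave 225.2, 251.0 and 229.1 units in replicate 1 and 68.4, 71.5 and 77.0 units in replicate 2.

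The miR-10b* probe had its median at 0.76 times the limit in replicate 1 and 0.88 times in replicate 2. It was the passenger arm closest to the limit in replicate 2, whereas in replicate 1 miR-196a-1* was closer, at 0.78 times the limit with 7 blank spots brighter. Of the 560 blank spots 19 were brighter than miR-10b* in replicate 1 and 28 in replicate 2. With the 95th percentile of the blank spots as the limit it was called in both samples, and under that limit it was the single passenger arm of these hairpins to be called. By the treat test it stood 0.44 ± 0.18 log2 units above blank (SD, n = 2) and did not pass (adjusted p = 1). The 3 passenger arms of the miR-196 hairpins had medians of 222.2 to 237.6 units in replicate 1 and 48.2 to 50.1 units in replicate 2, all below the limits.

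A further miRNA hairpin of the Hox clusters, mir-615, lies within the annotated span of Hoxc5. Neither of its arms was detected. miR-615-3p had medians of 235.0 units in replicate 1 and 51.7 units in replicate 2, and miR-615-5p had 230.5 and 60.0 units. Of the Hox cluster probes named here, those for miR-10a and miR-10b were detected in both samples, beside 5.96% of all 1040 probes. The opposite arms of these 2 hairpins stayed below the limits. So did the probes for the hairpins beside Hoxa9, Hoxb9 and Hoxc9 and in Hoxc5. A pattern along the clusters was not tested.

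**Figure D2:**
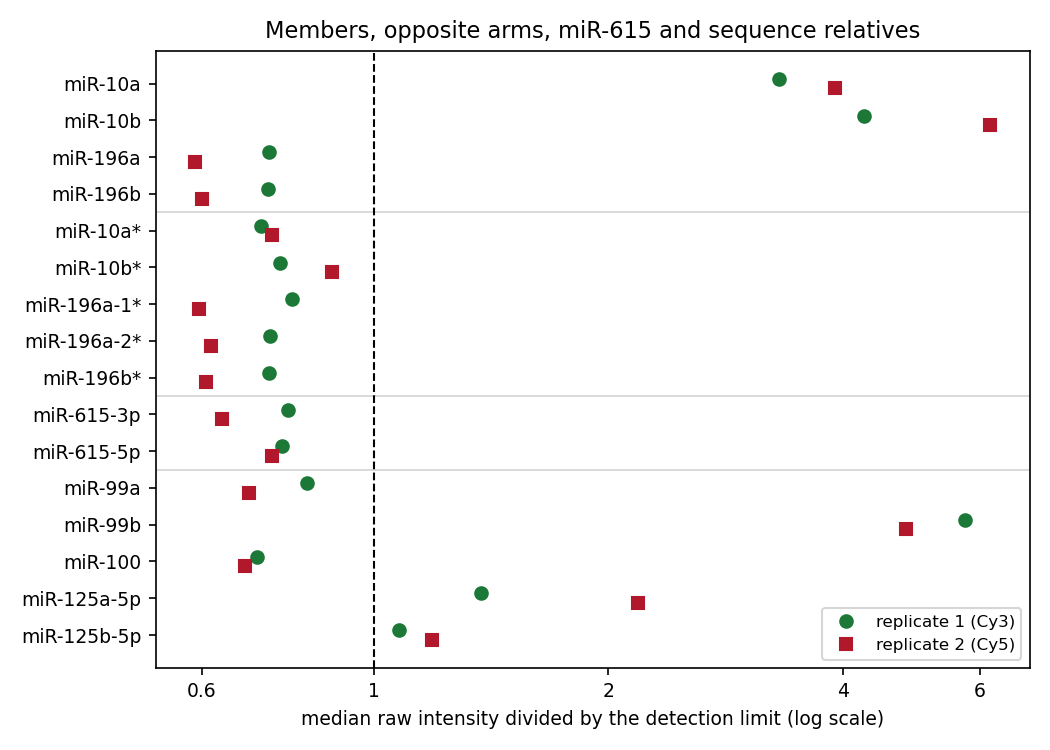
Median raw intensity of the 3 repeat spots divided by the detection limit of the same array, on a log axis, for the 4 miRNAs, their passenger arms, both arms of miR-615 and the sequence relatives (circles, replicate 1; squares, replicate 2). miR-10a and miR-10b lie between 3.32 and 6.19 times the limit, and no passenger arm or miR-615 arm reaches 1.

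Probes with nearly the same target can share signal, so the members were set beside their closest targets on the array by edit distance, the number of base changes, insertions or deletions. For miR-10a the closest were miR-10b at a distance of 1, miR-100 at 3 and miR-99a at 4. For miR-10b they were miR-10a at 1, miR-100 at 4, and miR-99a and miR-99b at 5. These relatives are shown because their seed, in capitals, has the letters of the miR-10 seed up to the fourth and then departs from it.
miR-100: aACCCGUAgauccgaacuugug
miR-99a: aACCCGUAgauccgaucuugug
miR-99b: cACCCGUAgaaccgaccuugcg

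The probe for miR-100 gave medians of 214.4 units in replicate 1 and 55.3 units in replicate 2, or 0.71 and 0.68 times the limit. That for miR-99a gave 248.6 and 55.9 units, at 0.82 and 0.69 times the limit. Both were below the limits in both samples, although 1 blank spot was brighter than miR-99a in replicate 1. With the limits that omit the brightest blank spot (243.5 units in replicate 1), an alternative chosen after seeing the data, miR-99a was called in replicate 1 and not in replicate 2, and miR-100 in neither. The same held with the 95th percentile of the blanks and with a median-based limit. miR-99b, at a distance of 6 from miR-10a and 5 from miR-10b, was detected at 1744.1 and 391.7 units. The single-base difference between miR-10a and miR-10b is smaller than any of these distances, and how much of each signal came from the other miRNA was not tested. The statement that both were detected therefore covers the pair, and the values do not show that each was present on its own.

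The further relatives miR-125a-5p and miR-125b-5p, at distances of 9 and 6 from both miR-10 members, were detected. miR-125a-5p gave 416.4 and 177.1 units, and miR-125b-5p gave 325.8 and 96.2 units in replicates 1 and 2. Neither passed the treat test (adjusted p = 0.335 for miR-125a-5p and 1 for miR-125b-5p).

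For miR-196a and miR-196b the closest targets were each other at a distance of 1, followed by miR-302a, a pluripotency miRNA, at 7. The miR-302a probe was not detected, at 228.0 and 54.1 units. The miR-196 seed AGGUAGU also occurred 1 base further from the 5′ end in 9 other targets, namely miR-98, miR-1961, let-7i, let-7g, let-7f, let-7d, let-7c, let-7b and let-7a. Of these 9, 7 were detected in both samples, for example let-7b at 818.0 and 308.3 units and let-7c at 900.2 and 404.8 units in replicates 1 and 2. let-7b and let-7c were at an edit distance of 8 from miR-196a and 9 from miR-196b, and were named after their values were seen. The miR-196 probes lay below the limits on arrays where let-7 probes carrying the same 7 letters were detected. Not all of these were bright, as let-7g gave 329.1 units in replicate 1 and 90.0 units in replicate 2, close to the limits.

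The 2 samples differed little at the detected members after normalization. The normalized log2 signal of miR-10a was 9.02 in replicate 1 and 9.14 in replicate 2, a difference of -0.13. That of miR-10b was 9.44 in replicate 1 and 9.78 in replicate 2, a difference of -0.33. Over the 62 miRNAs detected in both samples the same difference had a median of -0.20, with its 25th and 75th percentiles at -0.49 and 0.09, and both members lay within that range. No test of these differences was possible with a single sample per dye.

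The direction depended on the scaling. Without normalization, replicate 1 exceeded replicate 2 by 1.43 log2 units at miR-10a and by 1.19 at miR-10b, where the median of all 1040 probes was 0.69 and that of the 62 detected miRNAs 1.43. With median scaling the differences were 0.74 at miR-10a and 0.50 at miR-10b. Relative to the median of the detected miRNAs under the same setting, miR-10a lay within 0.15 log2 units, and miR-10b lay below it in each of the 8 settings compared, by 0.07 to 0.26 log2 units. All 8 settings reprocess the same 2 arrays, and median scaling gives the same distances as no normalization by construction. The miRNAs whose sample difference was most like that of miR-10a were miR-1983 (-0.14), miR-182 (-0.15) and miR-26a (-0.17). Those most like miR-10b were miR-24 (-0.34), miR-16 (-0.31) and miR-23b (-0.37), a likeness that rests on 2 samples.

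The authors also deposited a table with 1 processed value per miRNA and sample, which is on a linear scale with columns of median 10 and 9. How it was corrected and scaled is not given in the sources used here. Over the miRNAs detected in each sample it ordered the probes much as the raw medians did (Spearman's rho = 0.978 over 82 miRNAs in replicate 1 and 0.995 over 64 in replicate 2, across miRNAs, which are not independent replicates). In the authors' deposited table miR-10a had 1611 and 1763, and miR-10b had 1879 and 2640, in replicates 1 and 2. There miR-196a had 22 and 4, and miR-196b had 14 and 3. The authors' deposited table separates the same pairs, but it holds values of the same 2 samples and is not a second measurement. Its log2 ratios of replicate 1 over replicate 2 were -0.13 at miR-10a and -0.49 at miR-10b. In the authors' deposited table miR-10b* had 16 and 75, at the 73.7 percentile of the replicate 1 column and the 91.4 percentile of the replicate 2 column. There miR-10a* had 13 and 43, at the 65.7 and 88.8 percentile. In the replicate 1 column of the authors' deposited table both stood below miR-196a, at the 82.3 percentile, and miR-196a-1*, at the 83.5 percentile.

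**Figure D3:**
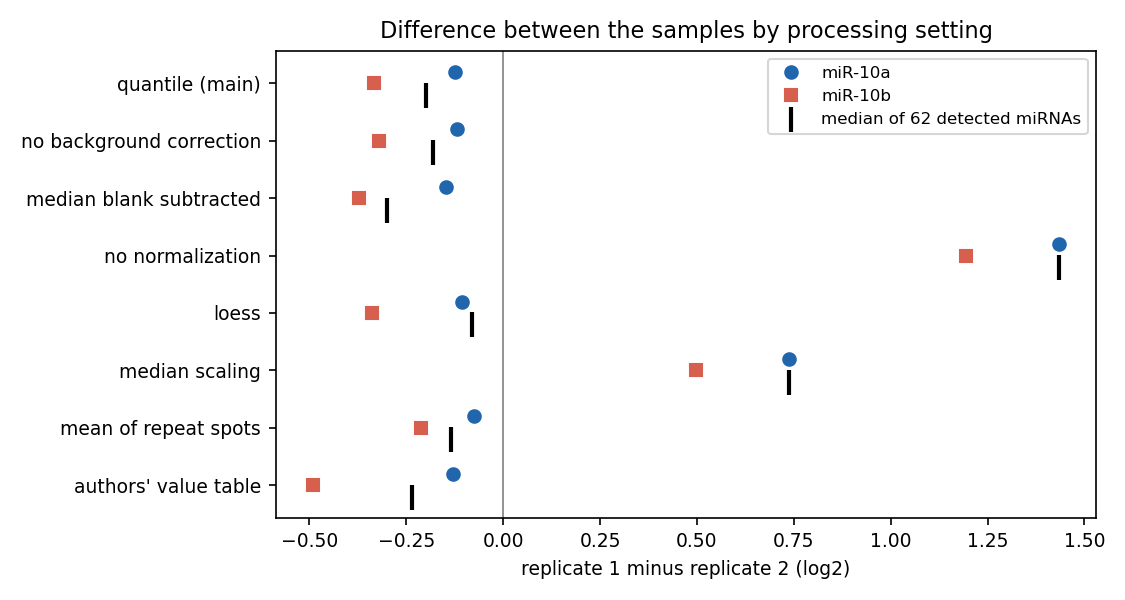
Replicate 1 minus replicate 2 in log2 signal for miR-10a (circles) and miR-10b (squares) under 8 processing settings, with the median of the 62 miRNAs detected in both samples as a bar. The differences lie between -0.49 and -0.08 in 6 settings and are positive, 0.50 to 1.43, without normalization and with median scaling.

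The repeat spots of the miR-10 members spread more widely in replicate 2 than in replicate 1. After subtraction of the median blank, the coefficient of variation between the 3 spots of miR-10a was 5.57% in replicate 1 and 38.4% in replicate 2, against medians of 8.09% and 11.8% over the 62 detected miRNAs. That of miR-10b was 7.72% in replicate 1 and 22.1% in replicate 2. In replicate 2 miR-10a had the second widest spread of the 62 miRNAs and miR-10b the ninth widest.

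The spots of both members lay in columns 2, 12 and 22 of the array, miR-10a in row 42 and miR-10b in row 44. In replicate 2 the first of these gave the lowest value for both. There, after blank subtraction, the third spot was 2.29 times the first for miR-10a, the largest such ratio of the 62 miRNAs, and 1.55 times the first for miR-10b. The other 15 detected miRNAs in the same columns had log2 ratios of the third over the first spot from -0.55 to 0.79 in replicate 2, with a median of 0.22, and 11 of the 15 were above 0. The SD within a single spot of miR-10a in replicate 2 was 28.8 to 49.3 units, smaller than the gap of 187.9 units between its first and last spots. The part of array position in this spread was not tested. Called from the first, the second or the last spot alone, miR-10a and miR-10b remained detected in both samples, since each of their spots lay above its limit.

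**Figure D4:**
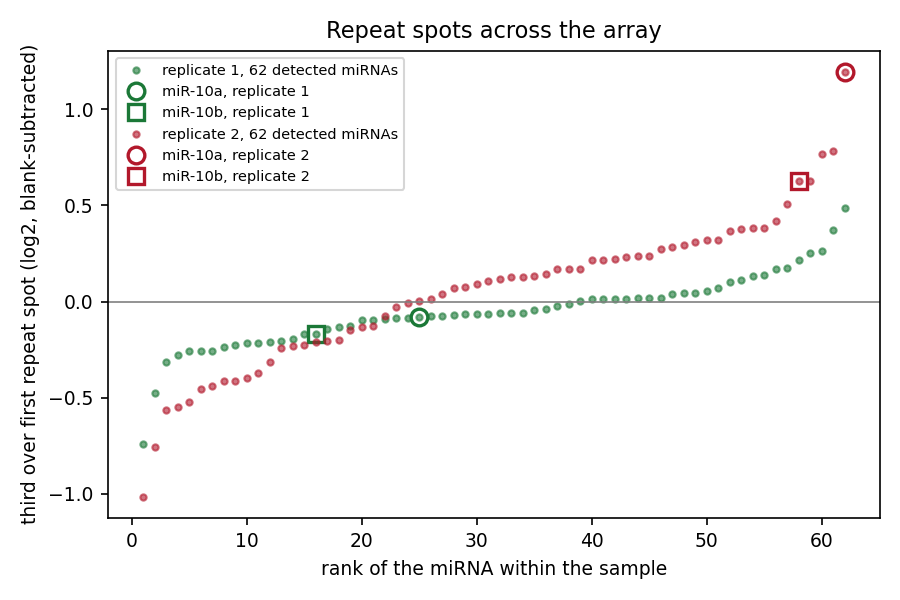
Ratio of the third to the first repeat spot after blank subtraction (log2) for the 62 miRNAs detected in both samples, ranked within each sample, with miR-10a (open circles) and miR-10b (open squares) marked. In replicate 2 miR-10a is the highest point at 1.19 and miR-10b lies at 0.63, while in replicate 1 they lie at -0.08 and -0.17.

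The labelled cell type was checked with marker miRNAs. Of 5 miRNAs listed for the ureteric epithelium, 3 were detected in both samples (miR-200b, miR-200c and miR-429), while miR-200a and miR-141 were below the limits. Of 16 markers of mesenchyme and smooth muscle, endothelium, blood, and nephron and kidney tubule, 0 were detected in both samples, beside 5.96% of all probes, and 1, the mesenchymal miR-214, in replicate 2. Beside so low a share over the array, 0 of 16 does not show that these cell types were absent. The miR-214 probe gave 281.0 and 88.0 units in replicates 1 and 2. It was called in both samples with the limits that omit the brightest blank spot (243.5 and 80.4 units), with the 95th percentile of the blanks, with a median-based limit, and from the second repeat spot alone, settings applied to the markers after seeing the data. The medians of the 16 lay between 205.7 and 281.0 units in replicate 1 and between 44.4 and 88.0 units in replicate 2. Summed over the median blank, the 16 markers gave 309.5 units in replicate 1 and -74.7 units in replicate 2. These sums carry a general offset between probes and blanks. The median probe detected in neither sample gave 222.1 units in replicate 1, where the median blank was 203.1 units. In replicate 2 it gave 52.8 units, below the median blank of 58.4 units. The sums therefore do not measure signal from other cells. The endothelial miR-126-3p gave 216.2 and 53.1 units, below the limits. The part of cells other than ureteric epithelium in the miR-10 signal was not tested.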

How the data were processed

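Small RNA from both samples was stained and hybridised to miRNA arrays by LC Sciences, per the labels' protocols. For each sample the authors deposited spot intensities (mean and SD within the spot), per the file headers, without background subtraction, since blank spots lie well above 0. A further deposited table holds processed intensity values. No source used here gives the scanner, nor how that table was corrected and scaled.

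Spots were read as given, and the median of 3 repeat spots was used. For the test, intensities were corrected with normexp on all spots (offset 50), log2-transformed and quantile-normalized over miRNA spots. limma 3.58.1 in R 4.3.3 ran treat (2-fold bound, variance trend, Benjamini-Hochberg over 1040 probes, threshold 0.05) on log2 signal minus the blank level of the array. All probes of like signal shared 1 variance estimate in that fit. P-values rest on 2 samples whose difference may be technical. Precision is limited by the number of arrays and by signal over background.

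Edit distances were computed with edlib. Sequences and positions come from RefSeq tables of GRCm38.p6, where all 16 named targets matched.

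The miRNAs named are the 4 members, their passenger arms, miR-615, the miR-99, miR-100 and miR-125 relatives, up to 5 closest targets of each member, the 3 detected miRNAs with the nearest sample difference, and cell type markers. Members and lists were chosen with earlier results of these data known. Detection limits, background correction, normalization, spot summaries, dim-probe filtering and the sample used were varied.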

Additional observations from a re-analysis of the deposited data

How the results depend on the processing

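The count of 2 detected members, miR-10a and miR-10b, held under all 11 alternatives: 6 or 10 blank SD (beside 4.33% and 3.17% of probes), the 95th percentile or a median-based limit, all spots required, either replicate left out, the replicate 1 limit of 243.5 units without its brightest blank spot, and each repeat spot alone. The last 2 kinds were chosen after seeing the data. Leaving out a replicate, requiring all spots and using each repeat spot alone could not change this count. All spots of miR-10a and miR-10b lay above the main limits, and all those of miR-196a and miR-196b below them. The 2 members passing treat became 1 (miR-10b) with a 4-fold bound and 0 without normalization or with median scaling. In those 2 settings the unadjusted treat p-values were 0.119 and 0.055, and 2 probes passed on the whole array. The other 5 alternatives gave 2. Among these, the filter to the 84 probes detected in at least 1 sample left out miR-196a and miR-196b. It kept miR-10a and miR-10b by their own signal over blank, so its count adds no support. With the median blank subtracted, and a floor of 1 unit, the signal over blank was 7.78 log2 units at miR-10a and 8.39 at miR-10b. That setting adds no offset and puts blank spots at or below their median on the floor, so its heights are on another scale. There miR-196a and miR-196b stood at 1.06 and 1.04 log2 units and did not pass. The difference between the samples turned from -0.13 to 1.43 at miR-10a and from -0.33 to 1.19 at miR-10b without normalization, and to 0.74 and 0.50 with median scaling. It kept its sign under the other 5 alternatives. With 1 replicate left out no treat test was possible. The signal over blank was then 2.68 to 2.96 log2 units at miR-10a and 3.31 to 3.38 at miR-10b. No paired analysis was possible because there is a single group. Signal below the limit of 3 blank SD was treated as not told from background. In replicate 1 that limit, 303.2 units, depended on the brightest blank spot.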

Other observations

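The passenger arms differed in rank by hairpin in replicate 2. There miR-10a* and miR-10b* stood at the 87.5 and 92.9 percentile of all 1040 probes by raw intensity. The miR-196 passenger arms stood between the 8.85 and 22.4 percentile. A high percentile in replicate 2 can be blank-level, since the median undetected probe, 52.8 units, lay below the median blank, 58.4 units. miR-10a* was 1.51 units above that blank level, with 231 of the 560 blank spots brighter. miR-10b* was 13.1 units above it, with 28 brighter. In replicate 1 the same miR-10 arms stood at the 25.2 and 74.2 percentile, and the miR-196 arms between the 46.6 and 84.8 percentile, so the order differed between the samples. All of these probes lay below the detection limits.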
